A study of Homo sapiens with 12 samples.

Results

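A group of 8 genes of the TRAIL death receptor system, TNFRSF10A, TNFRSF10B, TNFRSF10C, TNFRSF10D, TNFSF10, FADD, CASP8 and CFLAR, were followed by RNA sequencing in spheroids of the human prostate cancer cell line DU145. They are 8 of the 26485 genes in the table and were found by their symbols. The 4 receptor genes form one cluster on the short arm of chromosome 8 and were selected because genes of that region had already been seen to differ between the lines, so their differences are given below as a description with no test. The ligand and the 3 genes of the death complex lie on other chromosomes, were added for their role and were tested. All 8 passed the filter on low counts.

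The samples came from 3 lines with 4 biological replicates each. DU145KO cells had undergone Crispr/Cas9 editing of the α2 integrin gene ITGA2 and were used as a sorted pool without other transfection. DU145KO+α2 cells were DU145KO cells stably transfected with the pAWneo2 vector carrying α2 cDNA, and DU145KO+vector cells were DU145KO cells with empty pAWneo2. All 3 lines therefore carried the same editing, both transfected lines had been kept in geneticin, and no unedited DU145 cells were analysed here. Spheroids of 8000 cells were grown for 72 hours in serum-free medium. The gene counts of a sample summed to between 13948734 and 19988111 reads. ITGA2 lay between 259 and 332 CPM (gene counts scaled to the library size, normalized by TMM in edgeR) in DU145KO+α2, against 15.7 to 25.8 CPM in DU145KO and 13 to 20.2 CPM in DU145KO+vector. The 4 epithelial markers KRT8, KRT18, EPCAM and CDH1 were detected in every line and summed to between 686 and 1373 CPM. The leukocyte marker PTPRC did not exceed 3 counts in any sample, the detection floor used here, which covers counting error only. COL1A1, ACTA2 and PECAM1, markers of other cell types, lay above that floor in every sample. They had 111 to 209, 19 to 50 and 8 to 22 counts per sample.

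TRAIL, encoded by TNFSF10, is a membrane-bound or shed cytokine that binds trimeric receptors on the cell surface. TNFRSF10A (DR4) and TNFRSF10B (DR5) carry an intracellular death domain, which recruits the adaptor FADD and through it the initiator caspase CASP8. CFLAR (FLIP), a relative of CASP8, takes its place in the complex and limits its activation. TNFRSF10C is anchored to the membrane by a lipid and has no intracellular domain, TNFRSF10D has a truncated death domain, and both are known as decoy receptors. Whether a cell dies depends on processing of these proteins as well as on their amount, and only mRNA was measured here.

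**Figure D1:**
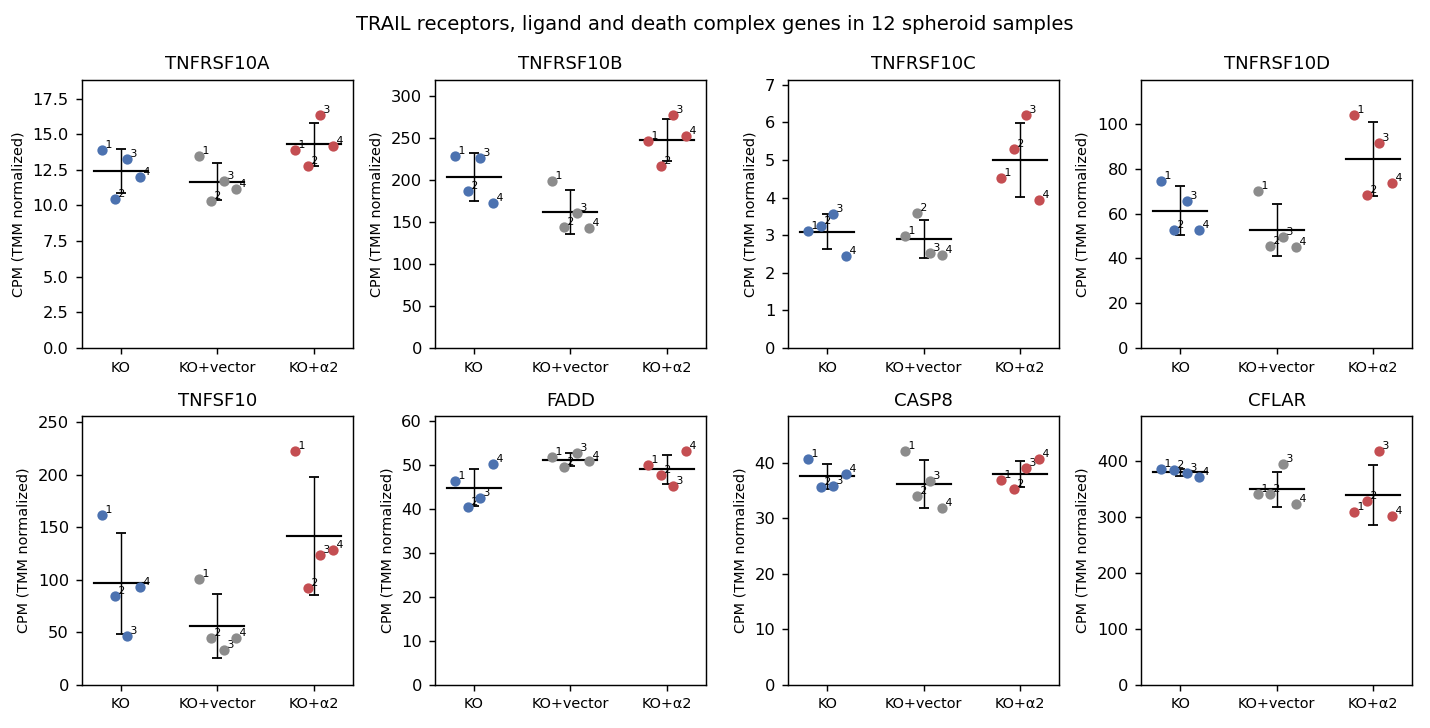
CPM (TMM normalized, linear axes from 0) of the 8 genes in each sample of DU145KO, DU145KO+vector and DU145KO+α2; each point is 1 sample labelled with its replicate number, horizontal lines are means and bars are SD (n = 4). TNFRSF10B and TNFRSF10C in DU145KO+α2 lie above every DU145KO+vector sample, while FADD, CASP8 and CFLAR overlap between those lines.

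All 4 receptor mRNAs were highest on average in DU145KO+α2 and lowest in DU145KO+vector. TNFRSF10B was the most abundant. Its CPM in replicates 1 to 4 was 229, 187, 226 and 173 in DU145KO, 199, 144, 161 and 143 in DU145KO+vector, and 246, 217, 278 and 252 in DU145KO+α2. Every DU145KO+α2 sample lay above every DU145KO+vector sample, whereas DU145KO overlapped with both transfected lines. The log2 fold change of TNFRSF10B was 0.62 ± 0.12 (SE) for DU145KO+α2 compared to DU145KO+vector, 0.29 ± 0.12 for DU145KO+α2 compared to DU145KO and -0.33 ± 0.12 for DU145KO+vector compared to DU145KO.

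TNFRSF10A, the other receptor with a death domain, differed least between the lines. It was measured at 13.9, 10.4, 13.3 and 12 CPM in DU145KO, 13.5, 10.3, 11.7 and 11.2 CPM in DU145KO+vector and 13.9, 12.7, 16.4 and 14.2 CPM in DU145KO+α2. The ranges of the 3 lines overlapped in every comparison. Its log2 fold change was 0.29 ± 0.12 compared to DU145KO+vector and 0.21 ± 0.12 compared to DU145KO.

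The decoy receptor TNFRSF10D was measured at 74.8, 52.5, 65.5 and 52.7 CPM in DU145KO, 70.0, 45.6, 49.6 and 45.3 CPM in DU145KO+vector and 104, 68.1, 91.6 and 73.6 CPM in DU145KO+α2. Replicate 1 was the highest sample of each line, and the DU145KO+vector value of that replicate overlapped the range of DU145KO+α2. The log2 fold change of DU145KO+α2 was 0.68 ± 0.17 compared to DU145KO+vector and 0.46 ± 0.17 compared to DU145KO. TNFRSF10C, the lipid-anchored decoy, rested on 36 to 106 counts per sample. Its levels were 3.11, 3.24, 3.57 and 2.46 CPM in DU145KO, 2.99, 3.59, 2.53 and 2.48 CPM in DU145KO+vector and 4.53, 5.30, 6.20 and 3.95 CPM in DU145KO+α2. It was the one receptor whose DU145KO+α2 samples lay above every sample of both other lines, with a log2 fold change of 0.79 ± 0.19 compared to DU145KO+vector and 0.69 ± 0.18 compared to DU145KO. Over all genes tested, the groups did not overlap for 17.2% of genes in DU145KO+α2 compared to DU145KO+vector, for 12.9% in DU145KO+α2 compared to DU145KO and for 8.76% in DU145KO+vector compared to DU145KO. Since the receptors were chosen by the shift of their region, these shares are given for orientation only.

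Samples with the same replicate number deviated together in these data, and within numbers the order was more regular. Each of the 4 receptors was higher in DU145KO+α2 than in the same-numbered sample of DU145KO+vector in 4 of 4 replicates, by 0.05 to 0.48 on the log2 scale for TNFRSF10A, 0.31 to 0.81 for TNFRSF10B, 0.56 to 1.29 for TNFRSF10C and 0.57 to 0.88 for TNFRSF10D. Against DU145KO the same held in 4 of 4 replicates, although TNFRSF10A in replicate 1 differed by only 0.0019. DU145KO+vector lay below the same-numbered DU145KO sample in 4 of 4 replicates for TNFRSF10A, TNFRSF10B and TNFRSF10D and in 2 of 4 for TNFRSF10C. The share of all genes with the same sign in 4 of 4 replicates was not counted. Such counts are therefore a description, here and for the members below.

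Per transcript length, TNFRSF10B gave most of the receptor mRNA in every sample. In the deposited RPKM values (reads scaled to library size and transcript length) TNFRSF10B was 48.6 ± 6.82 in DU145KO, 39.0 ± 6.48 in DU145KO+vector and 59.8 ± 5.79 in DU145KO+α2 (SD, n = 4). TNFRSF10D followed at 17.2 ± 3.10, 14.9 ± 3.41 and 23.9 ± 4.84 RPKM, TNFRSF10A at 7.02 ± 0.882, 6.66 ± 0.781 and 8.17 ± 0.823 RPKM and TNFRSF10C at 2.05 ± 0.30, 1.94 ± 0.353 and 3.34 ± 0.644 RPKM. The order of the 4 receptors was the same in each line, and no ranges of neighbours in that order overlapped. TNFRSF10B made up 59.5% to 66.2% of the receptor RPKM in the 12 samples. The decoy receptors together made up 25.6% ± 0.839 of it in DU145KO, 26.8% ± 1.11 in DU145KO+vector and 28.5% ± 2.98 in DU145KO+α2, ranges that overlapped. The summed RPKM was 74.9 ± 10.7, 62.4 ± 10.6 and 95.2 ± 10.3.

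**Figure D2:**
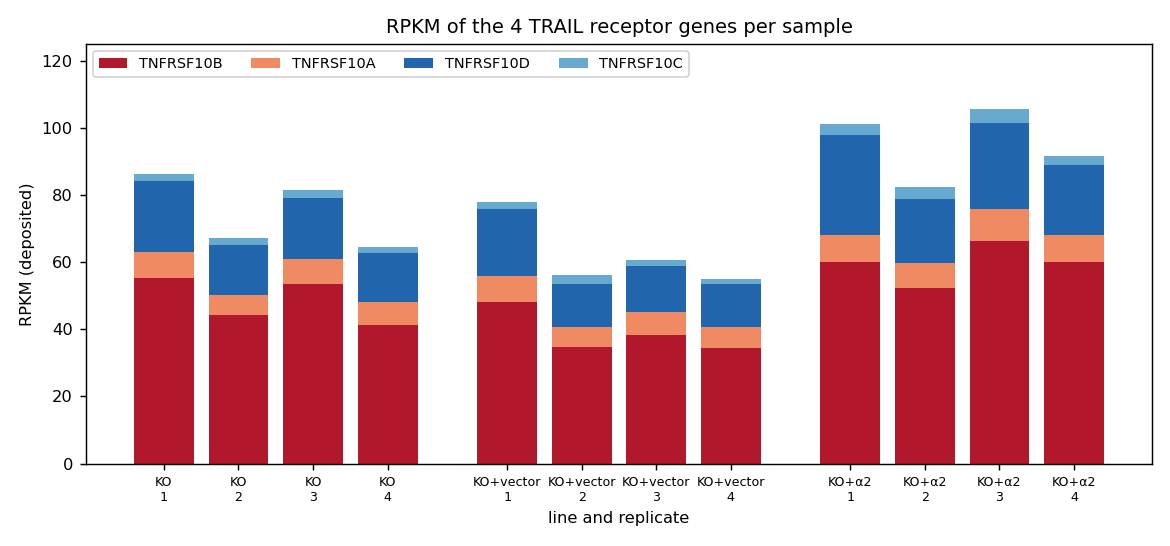
Deposited RPKM of the 4 TRAIL receptor genes stacked for each sample, by line and replicate number (bars start at 0). The death domain receptors TNFRSF10B and TNFRSF10A are in red shades and the decoys TNFRSF10D and TNFRSF10C in blue; the sum runs from 55.0 to 78.0 in DU145KO+vector and from 82.5 to 106 in DU145KO+α2, and TNFRSF10B is the largest share in every bar.

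The other members were placed in the same order per length. In DU145KO, TNFSF10 was second to TNFRSF10B at 31.3 ± 15.8 RPKM, with a range of 14.9 to 52.8 that overlapped that of every member from TNFRSF10B down to TNFRSF10D. FADD at 24.0 ± 2.39 RPKM and CFLAR at 23.7 ± 0.490 RPKM overlapped each other and lay above TNFRSF10D. CASP8 at 10.2 ± 0.700 RPKM lay between TNFRSF10D and TNFRSF10A with no overlap to either. CFLAR has many transcripts of different length, and its RPKM depends on the length used.

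The ligand gene TNFSF10 varied far more between replicates than the receptors did. Its CPM in replicates 1 to 4 was 162, 84.8, 46.6 and 93.6 in DU145KO, 101, 44.9, 33.6 and 44.8 in DU145KO+vector, and 222, 92.2, 124 and 128 in DU145KO+α2. Replicate 1 was the highest sample of each line, and its DU145KO+vector value lay above the lowest DU145KO+α2 sample, so that the groups overlapped. The highest sample of a line was 2.41 to 3.47 times the lowest for TNFSF10, against 1.28 to 1.57 times for the 4 receptors. For DU145KO+α2 compared to DU145KO+vector, TNFSF10 had a log2 fold change of 1.33 ± 0.45, with an unadjusted 95% interval of 0.32 to 2.34, and did not pass edgeR's quasi-likelihood test (adjusted p = 0.0919 over 14732 genes). Compared to DU145KO it was 0.55 ± 0.44 (-0.44 to 1.54, adjusted p = 0.55), and DU145KO+vector compared to DU145KO gave -0.78 ± 0.45 (-1.79 to 0.22, adjusted p = 0.475).

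When the replicate number was taken as a block, TNFSF10 rose in DU145KO+α2 compared to DU145KO+vector, with a log2 fold change of 1.40 ± 0.21 and an adjusted p of 0.00321 in edgeR. Within numbers, TNFSF10 was higher in DU145KO+α2 than in DU145KO+vector in 4 of 4 replicates, by 1.14, 1.04, 1.88 and 1.51 on the log2 scale in replicates 1 to 4. It was also higher than in DU145KO in 4 of 4, by 0.12 to 1.41, and DU145KO+vector was lower than DU145KO in 4 of 4, by 0.47 to 1.06, although neither of these comparisons passed with the block (adjusted p = 0.0819 and 0.0541). Without the block the call also depended on 1 library. Leaving out replicate 1 of DU145KO+vector gave a log2 fold change of 1.795 (adjusted p = 0.0367), and leaving out replicate 1 of every line gave 1.48 (adjusted p = 0.0138). The DESeq2 Wald test (adjusted p = 0.0312) and voom with limma (adjusted p = 0.0231) called it as well, while the adjusted p over all 21 alternatives ran from 0.00321 to 0.223.

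**Figure D3:**
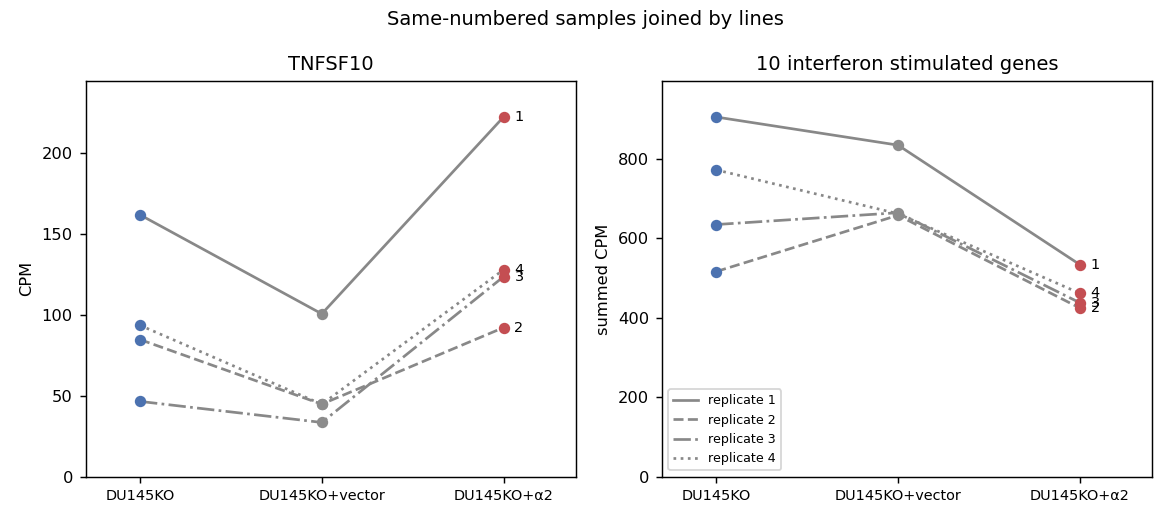
Left, CPM of TNFSF10; right, summed CPM of 10 interferon stimulated genes; lines join samples with the same replicate number across DU145KO, DU145KO+vector and DU145KO+α2 (linear axes from 0). TNFSF10 is lowest in DU145KO+vector and highest in DU145KO+α2 in each of the 4 replicates, whereas the interferon stimulated genes sum to 424.5 to 533.7 CPM in DU145KO+α2 and to 516 to 905 CPM in the other lines.

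TNFSF10 is a textbook interferon stimulated gene, and the bases before its start are shown because they hold a match to the interferon response element, beside those of IFIT1, which holds 2. The windows are from the RefSeq promoter table (GRCh38.p14), 5′ to 3′ on the gene's strand, ending before the outermost annotated start. That is chr3:172523476-172523680 on the minus strand for TNFSF10 and chr10:89392373-89392545 on the plus strand for IFIT1. Capitals mark the core motif, 2 copies of GAAA separated by any 2 bases, which here lies on the opposite strand.
TNFSF10: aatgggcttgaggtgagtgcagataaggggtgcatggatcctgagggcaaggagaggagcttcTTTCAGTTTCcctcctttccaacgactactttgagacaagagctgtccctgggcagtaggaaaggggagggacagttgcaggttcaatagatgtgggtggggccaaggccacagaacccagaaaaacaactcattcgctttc
IFIT1: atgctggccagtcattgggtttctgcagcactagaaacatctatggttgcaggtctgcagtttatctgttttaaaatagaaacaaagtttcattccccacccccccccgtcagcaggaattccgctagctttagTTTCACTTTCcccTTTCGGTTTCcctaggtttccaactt

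The table's windows reach 250 bases before its start, and the 45 bases of TNFSF10 and 77 bases of IFIT1 nearest to it were left out above, since they lie in annotated transcripts. Counted from the start in the table, the match in TNFSF10 begins 187 bases upstream. On both strands of the 250 bases before each start, the core motif was found in 1061 of 35116 promoters (3.02%) and in 5 of the 7 interferon stimulated genes with an entry (IFI6, IFIT1, IFIT3, ISG15 and MX1). FADD, CASP8 and CFLAR entries held none. The gamma interferon activation site, TTCNNNGAA, was found in 2306 promoters (6.57%) and not in the TNFSF10 window. A match describes the letters only.

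The other interferon stimulated genes were followed beside TNFSF10, whose own difference did not pass without the block. Of the 10 genes on that list, none rose and 7 fell in DU145KO+α2 compared to DU145KO+vector, where 5.95% of all genes tested fell. Compared to DU145KO 7 fell, where 5.08% of all genes tested did. The list was chosen with earlier results of these data known, so these counts and the p-values below are a description. IFIT1, IFIT2 and IFIT3, antiviral effector genes, fell by 1.51 ± 0.23, 1.39 ± 0.22 and 1.54 ± 0.31 on the log2 scale compared to DU145KO+vector (adjusted p = 0.00155, 0.00162 and 0.00906 in edgeR). OAS1, which senses double-stranded RNA, fell by 1.61 ± 0.37 (adjusted p = 0.0155). The median of the list was -1.18 compared to DU145KO+vector and -1.33 compared to DU145KO, beside -0.0062 and -0.0031 over all genes. In DU145KO+vector compared to DU145KO, 0 of 10 passed in edgeR, 1 had an unadjusted p below 0.05, against 15.0% of all genes tested, and the median was 0.02.

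The genes whose CPM followed TNFSF10 most closely over the 12 samples, among 12850 genes with a mean log2 CPM of at least 1, were UBXN10 (Pearson r = 0.98), NCEH1 (0.97), RHPN2 (0.97), FBXO9 (0.96) and RAB13 (0.96). These values are a description, because the 12 points share line, replicate number and library. NCEH1, a cholesterol ester hydrolase gene, is also the next tested gene on one side of TNFSF10 on chromosome 3, on the same strand and 107 kb away in GRCh38, a position that was looked at only after the value was seen. Its log2 fold change was 0.45 ± 0.13 for DU145KO+α2 compared to DU145KO+vector. This value carries no test, because NCEH1 was picked by its correlation with TNFSF10 in the same 12 samples. No annotated exon of another gene overlapped TNFSF10. The 24 other genes tested within 5 Mb of it had a median log2 fold change of 0.06 for DU145KO+α2 compared to DU145KO+vector, with 16 of 24 above 0.

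The adaptor, the caspase and its inhibitor differed little between the lines. Of TNFSF10, FADD, CASP8 and CFLAR, 0 passed in edgeR for DU145KO+α2 compared to DU145KO+vector (background 11.9% of all genes tested), for DU145KO+α2 compared to DU145KO (8.17%) and for DU145KO+vector compared to DU145KO (2.34%). At an unadjusted p below 0.05 there were 1 (TNFSF10), 0 and 1 (FADD) of 4, beside 24.9%, 21.4% and 15.0% of all genes tested. DESeq2 called 1, 0 and 0, beside 13.9%, 10% and 3.98% of all genes, and voom with limma called 1, 0 and 0, beside 11.9%, 8.22% and 2.21%. With the replicate block 1 (TNFSF10), 1 (CFLAR) and 1 (FADD) of 4 passed, when 26.5%, 22.3% and 13.4% of all genes were called.

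FADD was measured at 46.3, 40.4, 42.4 and 50.1 CPM in DU145KO, 51.7, 49.4, 52.7 and 51.0 CPM in DU145KO+vector and 50.1, 47.6, 45.2 and 53.0 CPM in DU145KO+α2. Both transfected lines were higher than the same-numbered DU145KO sample in 4 of 4 replicates, although the ranges overlapped. DU145KO+vector compared to DU145KO had a log2 fold change of 0.19 ± 0.08, with an interval of 0.03 to 0.36 (adjusted p = 0.253 in edgeR, and 0.0404 with the replicate block). DU145KO+α2 compared to DU145KO+vector gave -0.06 ± 0.08 (-0.23 to 0.10, adjusted p = 0.681). CASP8 lay between 32.0 and 42.1 CPM in all 12 samples. Its log2 fold change was 0.07 ± 0.09 (-0.12 to 0.26) for DU145KO+α2 compared to DU145KO+vector and 0.02 ± 0.09 (-0.17 to 0.20) compared to DU145KO, with adjusted p of 0.712 and 0.95 in edgeR, and the second of these changed sign when single samples were left out.

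CFLAR was measured at 387, 384, 380.1 and 372 CPM in DU145KO, 342, 341, 395 and 323 CPM in DU145KO+vector and 309.7, 329, 418 and 303 CPM in DU145KO+α2. Both transfected lines lay below DU145KO in replicates 1, 2 and 4 and above it in replicate 3. The log2 fold change of DU145KO+α2 was -0.16 ± 0.10 compared to DU145KO (-0.37 to 0.04, adjusted p = 0.366 in edgeR), and with the replicate block -0.18 (adjusted p = 0.0462). Compared to DU145KO+vector it was -0.04 ± 0.10 (-0.25 to 0.16, adjusted p = 0.841), a value that changed sign when single samples were left out.

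**Figure D4:**
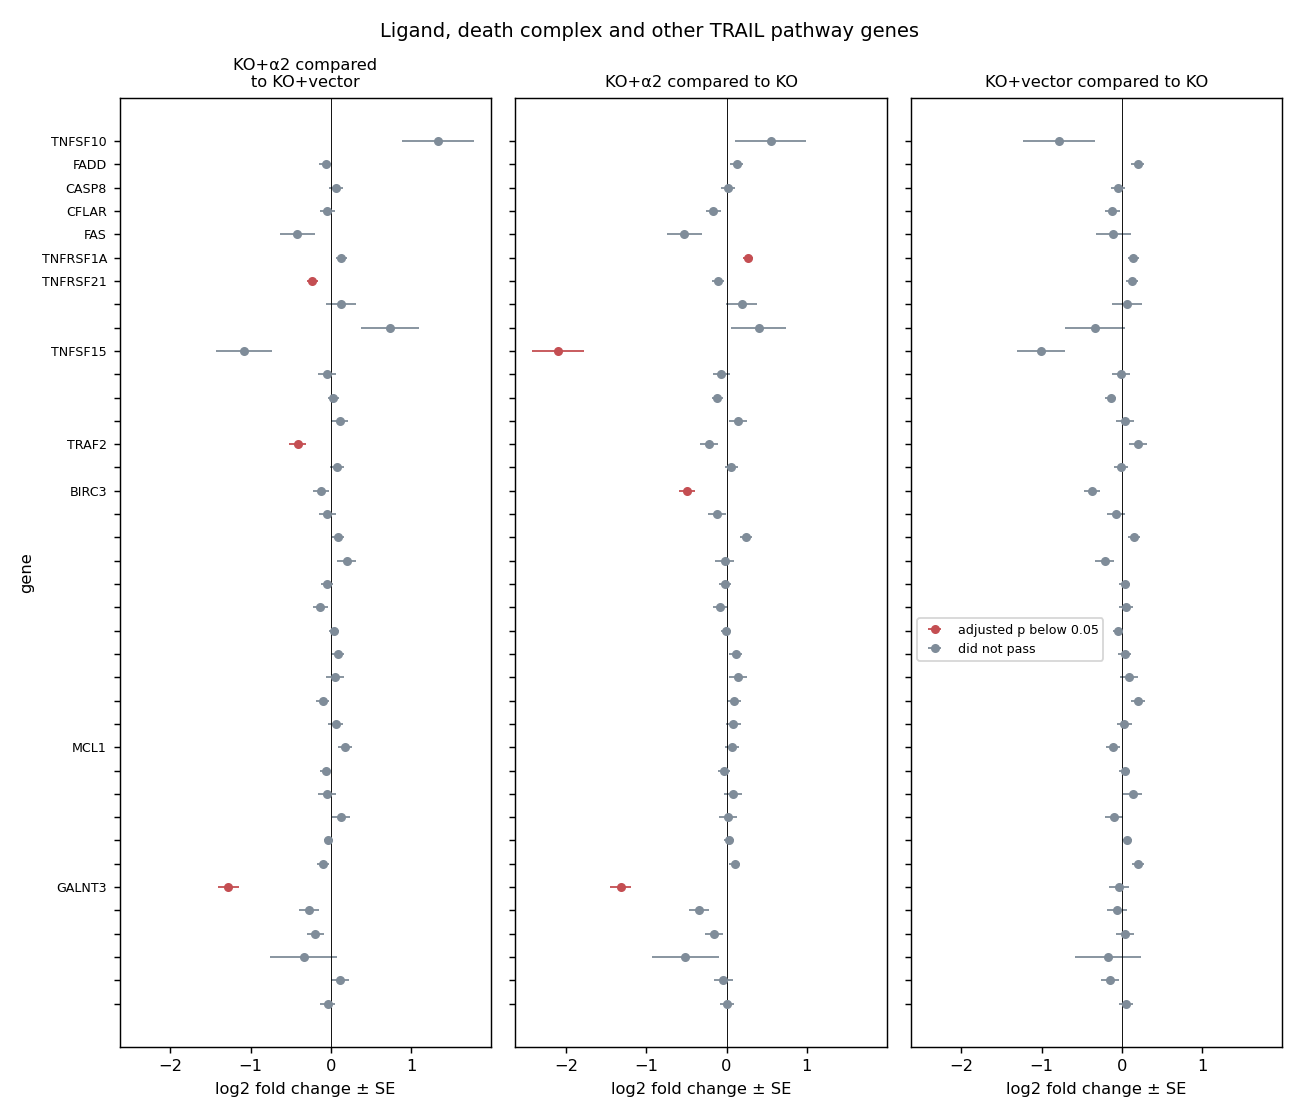
Log2 fold change ± SE of TNFSF10, FADD, CASP8, CFLAR and most of the other TRAIL pathway and death receptor genes tested, for the 3 comparisons on a common axis. Genes named in the text are labelled and red points had an adjusted p below 0.05 in edgeR. Most genes sit close to 0, GALNT3 is the lowest for DU145KO+α2 compared to DU145KO+vector and TNFSF10 the highest.

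Around these members, a list of 41 further genes, called the pathway list here, was followed, of which 38 had enough counts to be tested. It holds genes of the TRAIL pathway and also 8 other death receptors and ligands. TNFRSF21, TNFRSF1A, TNFSF15 and FAS belong to these 8. In DU145KO+α2 compared to DU145KO+vector 0 rose and 3 fell, 7.89% of those tested against a background of 11.9%. GALNT3, which starts O-glycan chains on secreted and surface proteins, fell by 1.28 ± 0.13 on the log2 scale (adjusted p = 2.14e-05 in edgeR), from 31.2 to 35.2 CPM in the DU145KO+vector samples to 12.2 to 15.8 CPM in DU145KO+α2. TRAF2, a ubiquitin ligase adaptor recruited to tumour necrosis factor receptors, fell by 0.42 ± 0.11 (adjusted p = 0.0183). TNFRSF21 (DR6), another receptor with a death domain, fell by 0.23 ± 0.07 (adjusted p = 0.0471). The list had a median of -0.04.

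In DU145KO+α2 compared to DU145KO 1 rose and 3 fell, 10.5% of those tested against a background of 8.17%. The tumour necrosis factor receptor TNFRSF1A rose by 0.27 ± 0.07 on the log2 scale (adjusted p = 0.0169 in edgeR). GALNT3 fell by 1.32 ± 0.13 (adjusted p = 1.53e-05), BIRC3, an inhibitor of apoptosis protein gene, by 0.50 ± 0.10 (adjusted p = 0.00464) and the cytokine gene TNFSF15 by 2.09 ± 0.33 (adjusted p = 0.000745). TNFSF15 rested on 42 to 50 counts in DU145KO and 4 to 16 counts in DU145KO+α2. In DU145KO+vector compared to DU145KO 0 of 38 passed in edgeR, where 2.34% of all genes did. At an unadjusted p below 0.05 there were 5 of 38, beside 15.0% of all genes, DESeq2 called 2, beside 3.98%, and voom with limma called 0, beside 2.21%.

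By role, 0 of the 10 tested genes of the mitochondrial arm passed in edgeR in any comparison. The shares of all genes tested were 11.9% for DU145KO+α2 compared to DU145KO+vector, 8.17% compared to DU145KO and 2.34% for DU145KO+vector compared to DU145KO. At an unadjusted p below 0.05 there were 0, 0 and 2 of 10, beside 24.9%, 21.4% and 15.0% of all genes tested. The log2 fold changes of these 10 genes lay between -0.11 and 0.17 for DU145KO+α2 compared to DU145KO+vector. With the replicate block the calls on the whole list were 9 for DU145KO+α2 compared to DU145KO+vector, 8 compared to DU145KO and 3 for DU145KO+vector compared to DU145KO, each of 38 genes, when 26.5%, 22.3% and 13.4% of all genes were called. The 9 included FAS, another death receptor (-0.40, adjusted p = 0.00741), and MCL1, a survival gene of the mitochondrial arm (0.18, adjusted p = 0.0291).

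The receptor cluster spans 205 kb of chromosome 8 (hg38, 23020133 to 23225102 in GENCODE). TNFRSF10B lies nearest to the short-arm end at 23020133 to 23069031, followed by TNFRSF10C at 23102921 to 23117445, TNFRSF10D at 23135588 to 23164027 and TNFRSF10A at 23190452 to 23225102. TNFRSF10C is on the plus strand and the others are on the minus strand. The 59 other genes tested within 5 Mb of its middle had a median log2 fold change of 0.47 for DU145KO+α2 compared to DU145KO+vector, with 56 of 59 above 0, when the median over all genes was -0.01. Compared to DU145KO the median was 0.35, again with 56 of 59 above 0, and for DU145KO+vector compared to DU145KO it was -0.19, with 9 of 59 above 0. These values come from the choice of the region and carry no test.

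The receptors lay within the spread of their neighbours. Compared to DU145KO+vector, 53 of the 59 neighbours had a higher log2 fold change than TNFRSF10A, 20 than TNFRSF10B, 18 than TNFRSF10D and 13 than TNFRSF10C, while the middle 50% of the neighbours lay between 0.38 and 0.77. Compared to DU145KO the numbers were 45, 35, 20 and 7 of 59. The nearest coding genes on either side with enough counts, RHOBTB2 and CHMP7, had log2 fold changes of 0.45 ± 0.09 and 0.40 ± 0.06 compared to DU145KO+vector. EGR3, an early response transcription factor gene, had the highest value of the 10 nearest genes at 1.05 ± 0.28, and LOC389641, which begins next to TNFRSF10A, the lowest at 0.12 ± 0.14.

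The shift ran over most of the short arm. Beyond 5 Mb toward the short-arm end, 52 genes had a median of 0.44 for DU145KO+α2 compared to DU145KO+vector. From 5 to 20 Mb on the centromere side, 69 genes had 0.38, and beyond 20 Mb on that side 318 genes had 0.01. Compared to DU145KO, the medians of DU145KO+α2 in these regions were 0.20, 0.20 and -0.0032. Those of DU145KO+vector compared to DU145KO were -0.29, -0.12 and -0.02, so both transfected lines contributed to the difference between them. No measurement of DNA was analysed here.

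**Figure D5:**
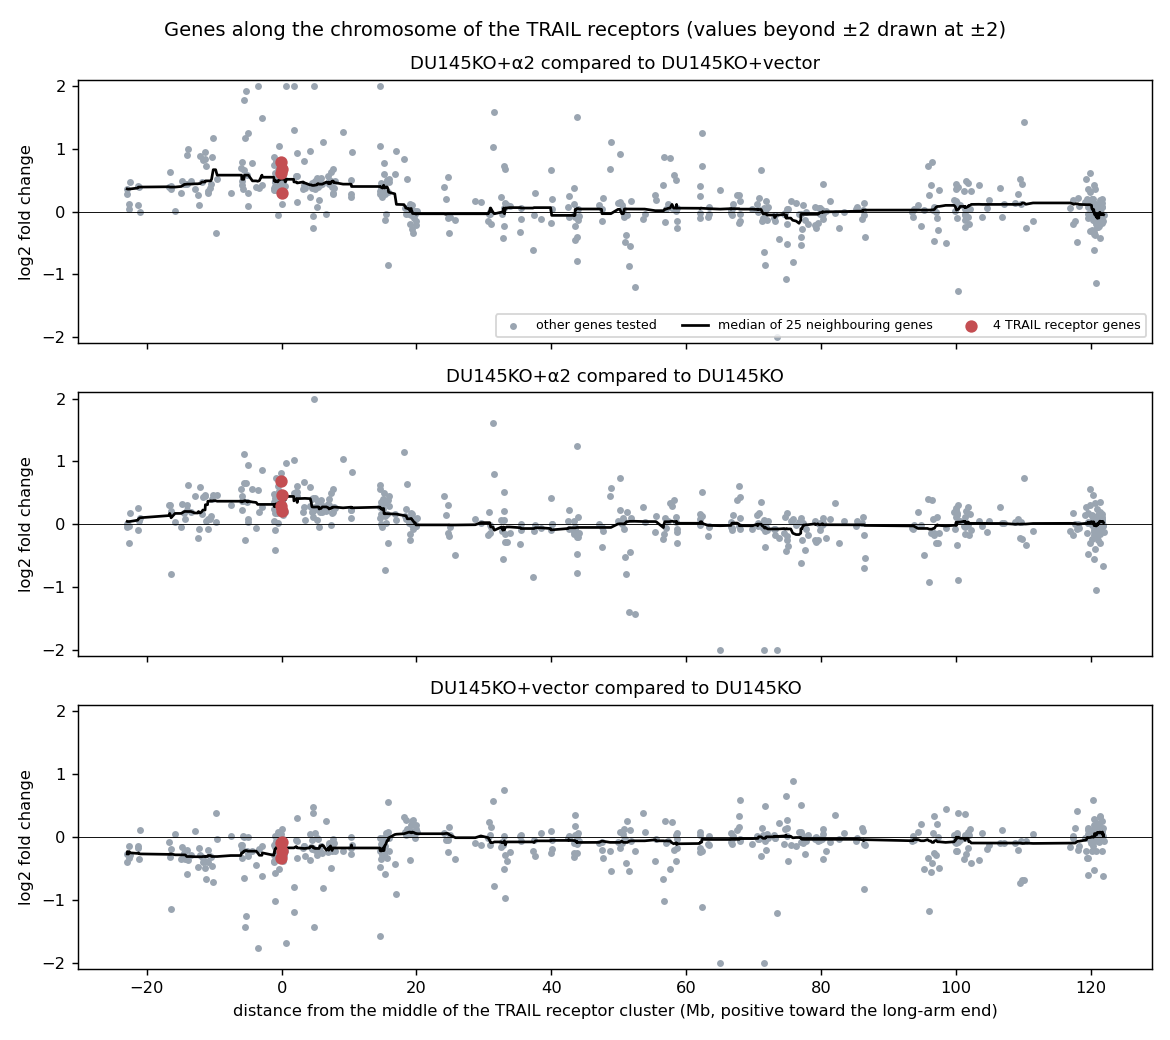
Log2 fold change of the 498 other genes tested on the chromosome of the TRAIL receptors (grey) against the distance from the middle of the receptor cluster in Mb, for the 3 comparisons; the 4 receptor genes are red and the black line is the median of 25 neighbouring genes. For DU145KO+α2 the line stays above 0 over the short arm on either side of the cluster and returns to about 0 near 20 Mb on the centromere side.

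TNFRSF10D followed TNFRSF10B with r = 0.92 over the 12 samples, rank 14 among 12850 genes, TNFRSF10A with 0.89 (rank 56), TNFRSF10C with 0.72 (rank 647) and the ligand TNFSF10 with 0.74 (rank 592). The highest were ATAD3C (0.97), NLGN3 (0.95), GRAMD1B (0.94), ZNF331 (0.94) and PLAG1 (0.94). CASP8 had 0.61, CFLAR 0.04 and FADD -0.26. As above, the points share line, replicate number and library.

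Counting limits touch some members. The transcripts of the 4 receptors share no stretch of 50 bases with each other, the read length. In the annotation, 33.0% of the exon bases of TNFRSF10C are shared with readthrough transcripts on the same strand. On the opposite strand other exons cover 59.2% of FADD, 16.7% of TNFRSF10A, 10.1% of CFLAR and 7.53% of TNFRSF10B, and for these reads the genes cannot be told apart unless strand was used in counting, which is not stated. In these whole spheroids a change in the make-up of the cells and a change in RNA per cell also cannot be told apart. The 4 epithelial markers summed to 686 to 963 CPM in DU145KO+α2, 923 to 1176 CPM in DU145KO+vector and 1026 to 1373 CPM in DU145KO, and the 4 markers of other cell types (PTPRC, PECAM1, COL1A1 and ACTA2) to 10.3 to 15.9 CPM over all samples. Compared to DU145KO, EPCAM and CDH1 fell in DU145KO+α2 by 1.14 ± 0.11 and 1.13 ± 0.16 on the log2 scale (adjusted p = 1.86e-05 and 0.00054 in edgeR). KRT18 fell by 0.42 ± 0.12 (adjusted p = 0.0434), and KRT8 did not pass. CDH1 also fell compared to DU145KO+vector, by 0.70 ± 0.16 (adjusted p = 0.00981). EPCAM fell in DU145KO+vector compared to DU145KO, by 0.83 ± 0.11 (adjusted p = 0.00093). The part of the lower epithelial marker level in the differences of the members was not tested.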

How the data were processed

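Spheroid RNA of the 3 lines, with 4 replicates each, was sequenced as stranded mRNA libraries with single-end reads. The authors aligned reads to hg38 with TopHat 2.1.0, counted unique alignments per gene with Subread 1.5.0 and deposited raw read counts. The authors also deposited RPKM values after TMM normalization, and their sample factors differed from TMM factors computed here by at most 1.78%. The use of strand in counting is not given in the sources used here.

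Total counts were 13948734 to 19988111 (median 16446500.5), and 3 counts, the floor, correspond to 0.150 to 0.215 CPM. No replicates were duplicates (chi-square divided by its degrees of freedom was 7.39 to 25.4 over 18 pairs). Counts were analysed with edgeR 4.0.16 in R 4.3.3. filterByExpr (minimum count 10) left 14732 of 26485 genes, and all 12 samples entered one robust quasi-likelihood model with line as factor. The two-sided p-values were corrected over these genes (Benjamini-Hochberg), and below 0.05 a gene is said to rise, fall or pass. The labels give each sample a replicate number but do not state what same-numbered samples share. Same-numbered samples had correlated deviations from their line means (r from 0.135 to 0.554 in 12 of 12 pairs, mean 0.378). The mean of -0.126 for different numbers follows from taking deviations from the line means and is no separate evidence. The fit with number as a block is given where it changes a call.

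As alternatives, normalization used DESeq2 1.42.0 size factors or the library size without TMM, and testing used voom with limma 3.58.1 or DESeq2's Wald test. Others were a fold change above 2, other filters on low counts, the 2 lines compared alone, the replicate block and each sample left out. Leaving out replicate 1 of each line and the alternatives for the interferon list were chosen after seeing the data. Positions come from GENCODE in GRCh38, or from RefSeq by Entrez ID for 1391 of the 14667 genes with one. Promoters come from RefSeq, and receptor promoter sequences are not shown. The functions were tested on simulated counts. The members and gene lists were chosen with earlier results of these data known. Genes named are the members, genes of the lists that passed, the 10 tested genes nearest to the receptors, the 5 genes most correlated with TNFRSF10B and TNFSF10, and ITGA2. IFIT1 was chosen for its promoter, and FAS and MCL1 were named, after values were seen. Some genes of the lists are not reported here.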

Additional observations from a re-analysis of the deposited data

Results flagged for a closer look

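One value of the members stood apart from the rest of its line. TNFSF10 in DU145KO+vector was 101 CPM in replicate 1 and at most 44.9 CPM in the other replicates, so that the gap took up a share of 0.832 of the range of the line, above Dixon's 95% critical value for 4 samples. Of 33 groups of 4 samples tested, 1 was marked in this way, and chance marks about 1 in 20. Replicate 1 was also the highest TNFSF10 sample in DU145KO and in DU145KO+α2.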

How the results depend on the processing

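For the counts of calls and the medians of the lists, 291 values under the alternatives stayed within the limits set and 18 moved. Of TNFSF10, FADD, CASP8 and CFLAR, 1 instead of 0 passed for DU145KO+α2 compared to DU145KO+vector with the DESeq2 Wald test, voom with limma and the replicate block, and 0 to 1 when samples were left out (1 without replicate 1 of DU145KO+vector, and 1 without replicate 1 of every line). The replicate block treats same-numbered samples as paired. With it, the calls among those 4 genes were 1, 1 and 1 for the 3 comparisons. Those on the pathway list were 9, 8 and 3 in place of 3, 4 and 0. On the interferon list 1 gene, IRF1, then passed for DU145KO+vector compared to DU145KO. The block changed no other call on the members or the counts beyond 1.5 times. A fold change above 2 left 1 pathway gene for DU145KO+α2 compared to DU145KO+vector and 2 compared to DU145KO. For DU145KO+vector compared to DU145KO, the pathway count was 2 with the DESeq2 Wald test (BIRC3 and TNFSF15) and 1 with no filter on low counts (BIRC3), and from 0 to 1 with a sample left out. Without replicate 1 of DU145KO+α2 the pathway count against DU145KO+vector was 1, GALNT3. Among single genes, 490 values stayed on their side, 7 came to pass and 7 changed sign, all of them near 0 and none past the threshold. With samples left out, CFLAR in DU145KO+α2 compared to DU145KO+vector ran from -0.153 to 0.0191 on the log2 scale, CASP8 compared to DU145KO from -0.0183 to 0.0742, and CASP8 in DU145KO+vector compared to DU145KO from -0.131 to 0.0044. The receptors kept their sign under all 21 alternatives, with TNFRSF10B from 0.56 to 0.74 and TNFRSF10A from 0.22 to 0.38 compared to DU145KO+vector. The causes were not tested. TNFRSF10C rested on 36 to 106 counts per sample, and 3 of the 41 pathway genes had too few counts to be tested.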
